A study of Sus scrofa domesticus with 150 samples.

Results

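The center of full-thickness skin wounds on day 13 after wounding was compared with unwounded skin of day 0 in pigs, across all measured genes. The comparison used 12 of the 150 samples of the series. They were chosen by the day and the location in the sample names: 6 samples labelled center on day 13 and 6 samples labelled day 0. The wounds were circular excisions of 2 cm on the back of female Yorkshire-mix pigs, covered with non-adherent and film dressings and given no other treatment than topical antibiotic at the biopsied site. The 6 centers came from 3 animals (pigs 1326, 1327 and 1328), with a wound labelled C and a wound labelled J in each, so the 2 wounds of an animal are not independent animals. The 6 skin samples were whole excised skin, 1 from each of 6 pigs (1323 to 1328), and 3 of these pigs gave no day 13 sample. No treated wound, transgenic line or unwounded skin of day 13 was part of the comparison, and the age of the animals was not in the labels. The biopsies were small punches of mixed tissue, read by bulk RNA sequencing after poly-A selection.

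An excised wound heals from its base and its rim. Fibroblasts, new capillaries and macrophages fill the gap with granulation tissue, which is rich in fibronectin and new collagen, while keratinocytes move in from the edge and rebuild the epidermis over it. Hair follicles, glands and pigment cells of the removed skin lie above or within the dermis that was cut away, and in large wounds they are not restored during early closure.

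The day 13 center held a transcriptome in which most genes of hair were at or near 0 counts and genes of a cornified epidermis were far below skin. Many genes of new matrix, matrix proteases, vessels and immune cells were higher than in skin. Matrix genes did not all rise: periostin and elastin were lower in every center. The collagens COL1A1 and COL3A1 did not pass with the animal as a block. KRT10, a keratin of the differentiated epidermal layers, was about 8 log2 units lower, and the hair root sheath keratin KRT71 had no count in any center. FN1 (fibronectin) and COL5A1 (a fibrillar collagen) were higher by 3.83 and 2.92 log2 units. MMP9 and MMP1, which degrade matrix, were higher by 9.61 and 10.37 log2 units. The myofibroblast actin ACTA2, the dermal proteoglycan DCN (decorin) and the angiogenic factor VEGFA did not pass the test.

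Library totals were 15489344 to 17312398 counts in the centers and 15698806 to 21415735 in skin, so that 3 counts, taken as the floor of detection, were worth at most 0.194 CPM, where CPM are counts scaled to a library total of 1000000. This floor covers counting error only. Levels below are CPM of a sample, given as the lowest and the highest of a group with its median, and they compare samples within a gene, not genes with each other. Log2 fold changes (log2FC) are center over skin with their standard error, and adjusted p-values come from the edgeR quasi-likelihood test, adjusted after Benjamini and Hochberg across every gene tested, with 6 samples per group. A log2FC followed by "without" is that of the fit without the library named, given where its fold moved by over 1.5 times or its call changed. Genes with 0 to 3 counts over all samples of a group are given by folds of the counts, since their fitted folds depend on the prior count. Other genes have fitted folds, also where a group lay near or below the floor. Examples are CXCL8 and SAA2 in skin, and KRT77 and CKM in the centers. The size of such folds is uncertain. Of 14620 genes tested, 8967 (61.3%) passed an adjusted p of 0.05. Of these, 4405 (30.1%) were higher and 4562 (31.2%) lower in the center, and 2530 (17.3%) and 2538 (17.4%) of the genes tested were called with a difference of at least 2-fold. The groups did not overlap for 2551 genes (17.4%) higher in the center and 3388 (23.2%) lower. The median log2 fold change over all genes tested was -0.02, and -0.12 when libraries were scaled by their totals only, which gave 3828 genes higher and 5126 lower.

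The 3 animals with wounds also gave skin. With the animal as a block 7128 of 14620 genes passed, 3447 higher and 3681 lower in the center. The other 3 pigs gave 1 skin sample each and do not enter the group difference of this fit. A call lost in it can reflect fewer skin samples as well as the pairing. Only the 3 animals that gave both centers and skin were then used, with their 2 wounds summed and the animal as a block. This gave 6526 of 15561 genes, 3341 higher and 3185 lower. The symbol lists below hold genes that mark a cell type or a function, and some genes stand in more than 1 list. Their counts are read against 30.1% higher and 31.2% lower, and counts of another fit against all genes called in that fit. In bulk tissue, fewer cells of a type and less RNA per cell cannot be told apart. Keratins, keratin-associated proteins, immunoglobulins, hemoglobins and S100 genes have near-identical copies among which reads can be split, and the values of their single members are uncertain. Whether the counting used strand was not stated, so a gene that overlaps another cannot be fully separated from it. This applies to 44 of the genes chosen for naming. In 18 of them the overlapping gene had the higher median in the centers, among them KRT35, ADH1, IL21R, LIPM, PMEL, MMRN2, FOXP3, MS4A1, CFB, IFIT2, SLC16A3, CKM and SOX10, whose values are therefore uncertain. COL3A1 with COL5A2, COL4A1 with COL4A2 and PECAM1 with DDX5 also overlap.

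**Figure D1:**
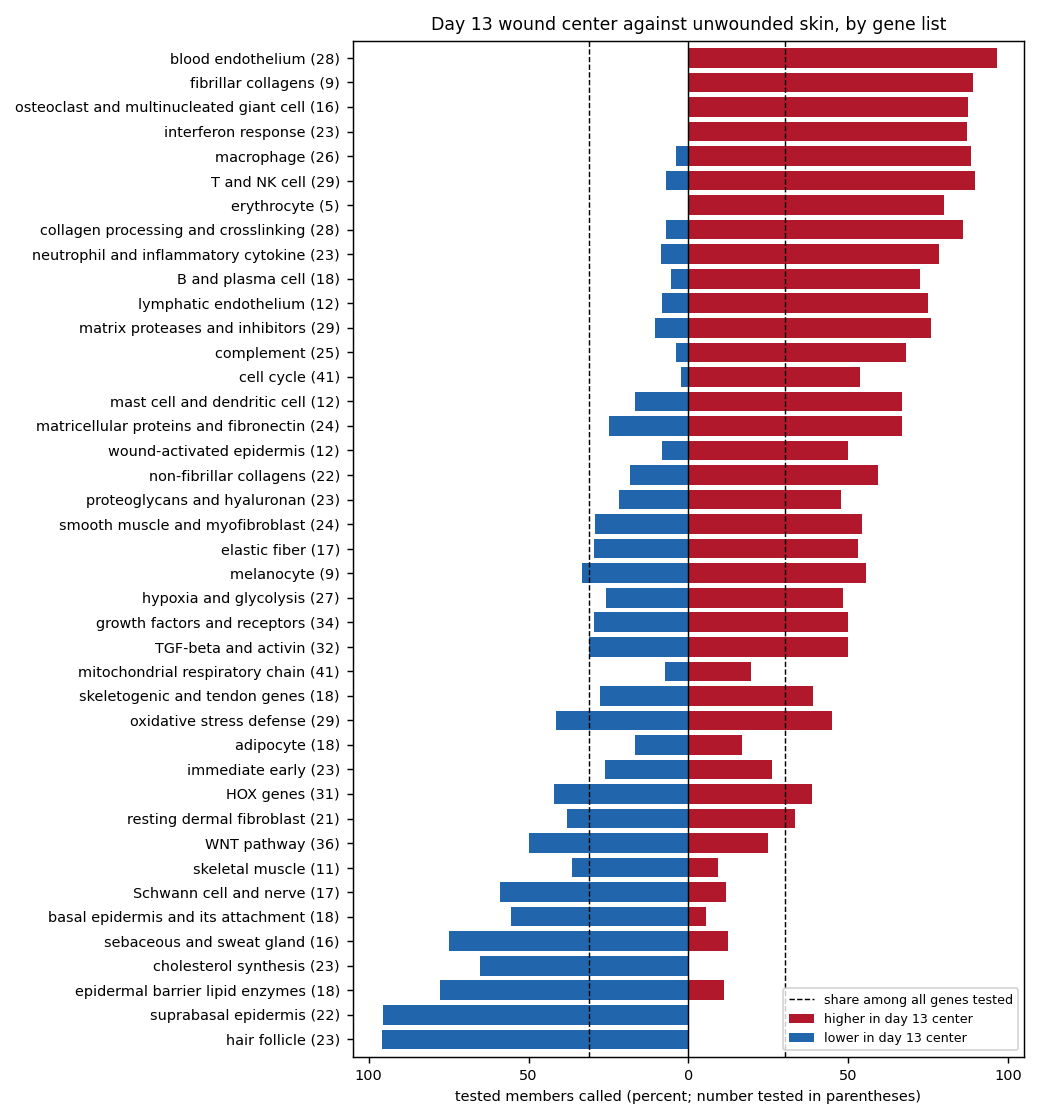
Percent of the tested members of each of 41 gene lists that were called higher (to the right, red) or lower (to the left, blue) in the day 13 center than in day 0 skin; the dashed lines mark the share among all genes tested, 30.1% higher and 31.2% lower. Epidermal, hair and gland lists extend to the left, and the vessel, immune, collagen processing and protease lists to the right.

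In the suprabasal epidermis, the layers that harden into the barrier, 21 of 22 tested genes fell, 0 rose and the median log2 fold change was -5.43. KRT10 (ENSSSCG00025042112, contig LUXX01073178.1, 1798599 to 1802962) was at 7.68 to 128 CPM (median 65.4) in the centers and 8890 to 27620 CPM (median 18070) in skin (log2FC -8.05 ± 0.68, adjusted p = 5.48e-07). KRT1, its partner in the intermediate filaments of these layers, was at 4.91 to 157 CPM (median 73.3) in the centers and 6279 to 22960 CPM (median 13720) in skin (log2FC -7.46 ± 0.74, adjusted p = 2.04e-06). For both keratins the highest center was far below the lowest skin sample. DSG1, a desmosomal cadherin of the upper epidermis, was at 2.52 to 290.2 CPM (median 32.1) in the centers and 2010 to 4021 CPM (median 2953) in skin (log2FC -5.20 ± 1.10, adjusted p = 0.00113, -6.51 without the center sample of pig 1326, wound J). FLG2, a filaggrin-family protein of the cornified layer, was at 0.968 to 9.24 CPM (median 4.28) in the centers and 1036 to 2870 CPM (median 2265) in skin (log2FC -8.71 ± 0.59, adjusted p = 1.01e-07). KRT77, a keratin that is also found in sweat ducts, was at 0 to 0.289 CPM (median 0.151) in the centers and 699.6 to 1779 CPM (median 1105) in skin (log2FC -13.01 ± 0.54, adjusted p = 5.43e-09). In 19 of the 22 genes no center reached the skin range. IVL (involucrin), a cornified envelope precursor, was the exception in the test. It was at 2.76 to 311 CPM (median 21.4) in the centers and 109.5 to 286 CPM (median 219.6) in skin, with overlapping groups (log2FC -1.04 ± 0.96, adjusted p = 0.367, -1.95 without the center sample of pig 1326, wound J).

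Enzymes that make and process the lipids of the epidermal barrier were lower in 14 of 18 tested genes and higher in 2, with a median log2 fold change of -4.27. ALOX12B, a lipoxygenase needed for the lipid envelope of cornified cells, was at 1.03 to 9.74 CPM (median 2.22) in the centers and 54.0 to 173 CPM (median 114) in skin (log2FC -4.75 ± 0.54, adjusted p = 6.32e-06). ABCA12, the transporter that loads lamellar bodies, was at 0.188 to 18.1 CPM (median 2.22) in the centers and 55.0 to 152 CPM (median 101) in skin (log2FC -3.94 ± 0.84, adjusted p = 0.00117, -4.62 without the center sample of pig 1328, wound C). LIPM, an epidermal lipase, showed the largest fall of the list (log2FC -6.61 ± 0.37, adjusted p = 2.14e-08). None of the 3 genes had a center within its skin range. A gene that rose was ELOVL1, which elongates fatty acids and is also active outside the epidermis. With the animal as a block, 1 of the 2 passed.

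The basal epidermis, the layer that divides and is anchored to the basement membrane, was lower in 10 of 18 genes and higher in 1 (median -1.26). KRT5 (ENSSSCG00025059933, contig LUXX01048831.1, 2078081 to 2085192), the basal keratin, was at 24.1 to 2044 CPM (median 277) in the centers and 5966 to 10630 CPM (median 8139) in skin (log2FC -3.41 ± 1.00, adjusted p = 0.0096, -4.13 without the center sample of pig 1326, wound J). TP63, the transcription factor of stratified epithelia, was at 0.452 to 54.0 CPM (median 5.64) in the centers and 193 to 254 CPM (median 249) in skin (log2FC -3.65 ± 0.99, adjusted p = 0.00582, -4.47 without the center sample of pig 1326, wound J). COL17A1, a collagen of hemidesmosomes, was at 6.33 to 369 CPM (median 46.5) in the centers and 1039 to 1790 CPM (median 1421) in skin (log2FC -3.29 ± 0.94, adjusted p = 0.00801, -3.94 without the center sample of pig 1326, wound J). The groups did not overlap for any of these genes, but the centers spread over more than an order of magnitude in each. COL7A1, the collagen of the anchoring fibrils, which fibroblasts make as well as keratinocytes, was the member that rose. It was at 347 to 1104 CPM (median 699.6) in the centers and 237 to 535 CPM (median 395) in skin, with overlapping ranges (log2FC 0.96 ± 0.25, adjusted p = 0.00492). DSG3, KRT15 and the laminin chains LAMA3 and LAMB3 were not called. When only the 3 animals with wounds were used, with their wounds summed and the animal as a block, 5 members were called lower.

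Of the genes that keratinocytes and other cells switch on after wounding, 6 of 12 tested rose and 1 fell (median 1.36). S100A8 and S100A9, the calprotectin subunits, are made by both keratinocytes and myeloid cells. S100A8 was at 43.8 to 570.1 CPM (median 93.0) in the centers and 0.631 to 3.19 CPM (median 1.89) in skin (log2FC 6.71 ± 0.78, adjusted p = 8.37e-06, 5.99 without the center sample of pig 1328, wound C). S100A9 was at 62.6 to 1473 CPM in the centers and 0.899 to 4.11 CPM (median 2.29) in skin (log2FC 7.54 ± 0.96, adjusted p = 1.77e-05, 6.51 without the center sample of pig 1328, wound C). Every center was above every skin sample for both. KRT6C, a keratin of migrating and hair follicle keratinocytes, was at 69.2 to 7231 CPM (median 737) in the centers and 478 to 995 CPM (median 899) in skin. KRT6B was at 5.57 to 586 CPM (median 56.8) in the centers and 52.4 to 244 CPM (median 175) in skin. Neither passed the test (log2FC 1.48 ± 0.96, adjusted p = 0.201, 0.44 without the center sample of pig 1326, wound J and log2FC 0.31 ± 1.00, adjusted p = 0.806, -0.47 without the center sample of pig 1326, wound J). EREG (epiregulin), an EGF-family ligand, was at 1.16 to 42.3 CPM (median 6.37) in the centers and 42.8 to 59.8 CPM (median 54.5) in skin and lower without overlap (log2FC -1.93 ± 0.68, adjusted p = 0.0251, -2.30 ± 0.95, adjusted p = 0.0789 with the animal as block, -2.78 without the center sample of pig 1328, wound C).

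The hair follicle list had the largest median difference of the 41 lists. Of 23 tested genes, 22 fell and 0 rose, and the median log2 fold change was -11.97, or -9.80 with genes without counts in the centers set to their bound. With limma-voom, 10 of them were called lower, where 4644 of all 14620 genes were. Of the genes named below, KRT31, KRT33B, TCHH, KRTAP9-3, KRTAP11-1, KRTAP3-3, KRT35, KRT40, KRT74 and PRR9 each lost the call in 1 alternative fit. KRT71 (ENSSSCG00025059396, contig LUXX01048831.1, 2041922 to 2051575), a keratin of the inner root sheath, was at 10.1 to 5729 CPM (median 4257) in skin and had 0 counts in every center (at least 22000-fold lower, adjusted p = 0.000102). KRT31 and KRT33B, hard keratins of the hair shaft, were at 2.80 to 1644 CPM (median 896) and 3.77 to 1900 CPM (median 975.2) in skin, with 0 counts in every center. Their folds were at least 4630-fold and at least 5030-fold lower (adjusted p = 0.000259 and adjusted p = 0.000193). TCHH (trichohyalin), which hardens the inner root sheath, had counts in 1 center only and was at 1.37 to 630.3 CPM (median 526) in skin (skin over center 40700-fold, with a 95% counting interval from 7310 to 1610000, adjusted p = 4.13e-06). Within skin, the day 0 sample of pig 1324 was low in these genes, at 10.1 CPM for KRT71 and 1.37 CPM for TCHH. The largest falls outside the list were of the same kind. The keratin-associated proteins KRTAP9-3, KRTAP11-1 and KRTAP3-3, which crosslink hair keratins, were at medians of 1097, 1057 and 1554 CPM in skin (adjusted p = 0.00041, adjusted p = 0.000368 and adjusted p = 2.51e-06). KRT35, KRT40, KRT74 and PRR9 (adjusted p = 0.00135, adjusted p = 0.000464, adjusted p = 7.35e-06 and adjusted p = 8.47e-06) also belong to hair or its sheath. MSX2, a transcription factor used in hair and in limb development, was the member not called, at 12.3 to 35.1 CPM (median 21.8) in the centers and 4.63 to 84.9 CPM (median 46.2) in skin (log2FC -0.84 ± 0.51, adjusted p = 0.171, -1.08 and called without the skin sample of pig 1324).

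Gland genes were lower in 12 of 16 and higher in 2 (median -4.29, or -3.28 with the gene without counts in the centers at its bound). AWAT2, a wax synthase of sebocytes, had 0 counts in every center and 1.15 to 1.68 CPM (median 1.26) in skin (at least 6.49-fold lower, adjusted p = 8.25e-06). AQP5, the water channel of sweat glands, was at 0.473 to 3.80 CPM (median 0.877) in the centers and 12.1 to 37.6 CPM (median 20.4) in skin (log2FC -3.86 ± 0.51, adjusted p = 2.34e-05, -4.47 without the center sample of pig 1326, wound J). SOAT1, which esterifies cholesterol in many cells including macrophages, went the other way, at 32.0 to 48.8 CPM (median 43.3) in the centers and 2.28 to 4.65 CPM (median 3.96) in skin (log2FC 3.61 ± 0.19, adjusted p = 1.54e-08).

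Melanocyte genes did not move together. Of 9 tested, 5 rose and 3 fell (median 0.92). TYR, the rate-limiting enzyme of melanin, had 0 counts in every center and skin sample, and TYRP1, DCT, SLC45A2 and OCA2 were too low to be tested. PMEL, the fibril protein of melanosomes, was at 0.250 to 0.886 CPM (median 0.425) in the centers and 0.856 to 1.53 CPM (median 1.30) in skin (log2FC -1.19 ± 0.32, adjusted p = 0.00607). RAB38, which sorts enzymes to melanosomes and is also expressed in other epithelia, was at 0.739 to 27.0 CPM (median 5.41) in the centers and 83.8 to 179 CPM (median 121) in skin (log2FC -3.72 ± 0.79, adjusted p = 0.00112, -4.57 without the center sample of pig 1326, wound J). MLANA, an antigen of melanocytes, had 0 counts in all 6 skin samples and 3.57 to 15.9 CPM (median 6.11) in the centers (at least 32.0-fold higher, adjusted p = 6.99e-06). The other members that rose were GPR143, KIT, EDNRB and CAPN3, of which KIT and EDNRB are also used by mast cells and endothelium. The defining enzymes of pigment cells were at or near 0 in both groups.

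Nerve sheath genes were lower in 10 of 17 and higher in 2 (median -1.62). SOX10, the transcription factor of Schwann cells and melanocytes, was at 0.231 to 2.69 CPM (median 0.752) in the centers and 4.89 to 9.67 CPM (median 8.41) in skin (log2FC -2.93 ± 0.48, adjusted p = 0.000143, -3.55 without the center sample of pig 1328, wound J). PMP2, a peripheral myelin protein, was at 0.0646 to 0.626 CPM (median 0.150) in the centers and 0.685 to 446 CPM (median 261) in skin, with 0.685 CPM in the day 0 sample that was low in hair genes (log2FC -9.80 ± 1.20, adjusted p = 1.26e-05). GDNF, a neurotrophic factor that non-neuronal cells can secrete, was at 9.30 to 17.7 CPM (median 12.8) in the centers and 0.731 to 2.06 CPM (median 1.55) in skin (log2FC 3.23 ± 0.26, adjusted p = 4.13e-07).

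Fat and muscle below the dermis can enter a biopsy. For adipocyte genes, 3 of 18 rose and 3 fell, and with the animal as a block 1 rose and 2 fell. ADIPOQ (adiponectin) was at 1.16 to 1636 CPM (median 411) in the centers and 51.6 to 882 CPM (median 273) in skin (log2FC 0.64 ± 0.98, adjusted p = 0.595, -0.13 without the center sample of pig 1328, wound J). The lowest center was wound C of pig 1327, and without it 5 members were called higher, as were 4607 of all 14904 genes. PCK1 and LEP (leptin) were called in opposite directions, the former up (log2FC 2.84 ± 1.10, adjusted p = 0.0384, 3.56 ± 1.66, adjusted p = 0.111 with the animal as block, 1.78 to 3.84 and past the threshold in 5 of 12 fits that left out 1 library) and the latter down (log2FC -2.64 ± 0.97, adjusted p = 0.0308, -2.75 ± 0.99, adjusted p = 0.0503 with the animal as block, -4.29 to -2.04 and past the threshold in 5 of 12 fits that left out 1 library). Of 11 tested muscle genes, 1 rose and 4 fell. CKM (muscle creatine kinase) was at 0 to 0.313 CPM (median 0.0578) in the centers and 3.03 to 13.4 CPM (median 5.28) in skin (log2FC -5.57 ± 0.69, adjusted p = 1.29e-05), and the skeletal actin ACTA1 was too low to be tested in both groups. TPM3, a tropomyosin that most cells make, was the member that rose (log2FC 0.96 ± 0.12, adjusted p = 1.28e-05).

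Cholesterol synthesis, which keratinocytes and sebocytes run at a high rate, was lower in 15 of 23 genes and higher in 0 (median -0.95). SQLE, which oxidises squalene, was at 8.27 to 32.8 CPM (median 23.2) in the centers and 49.8 to 106 CPM (median 91.3) in skin (log2FC -1.88 ± 0.31, adjusted p = 0.000162). Every center was below every skin sample. INSIG1, which holds the pathway back when sterols are ample, was at 44.7 to 102 CPM (median 76.7) in the centers and 25.2 to 81.0 CPM (median 47.2) in skin and did not pass (log2FC 0.71 ± 0.31, adjusted p = 0.0598, 0.57 to 0.94 and past the threshold in 3 of 12 fits that left out 1 library).

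**Figure D2:**
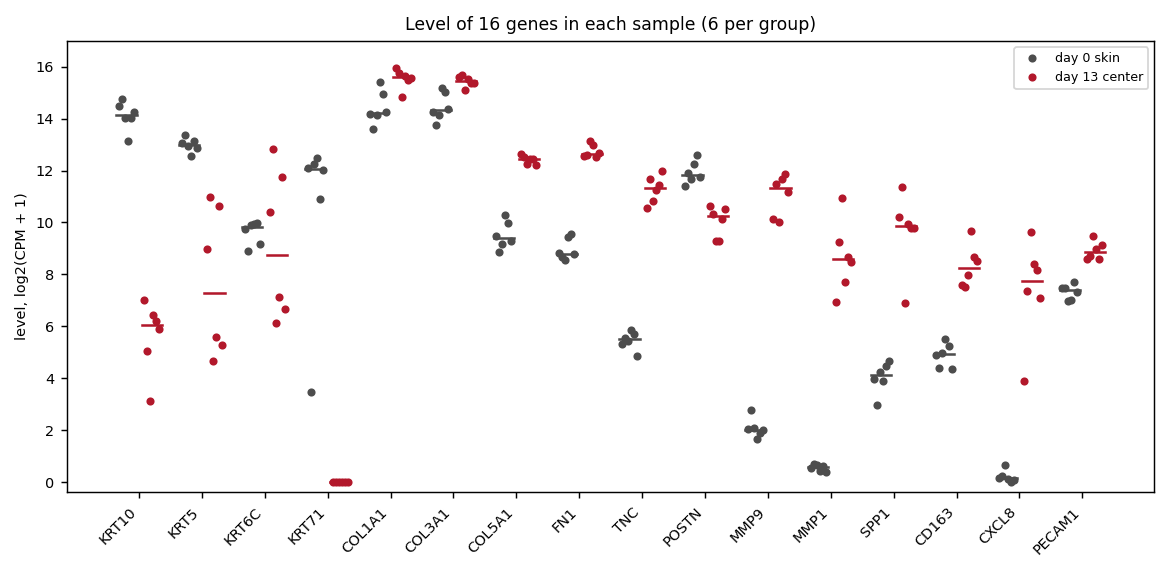
Level of 16 genes as log2(CPM + 1) in each of the 6 day 0 skin samples (grey) and the 6 day 13 center samples (red), with a line at the median of each group. KRT10, KRT5 and KRT71 lie lower in every center, FN1, TNC, MMP9, MMP1, SPP1, CD163, CXCL8 and PECAM1 lie higher in every center, and the centers of KRT5 and KRT6C spread widely.

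Fibrillar collagens, which form the tensile fibers of dermis and scar, were higher in 8 of 9 genes and lower in 0 (median 2.88, with 6 of the 9 called higher with the animal as a block). The type I and III chains are the bulk of dermal collagen. COL1A1 (ENSSSCG00025071146, contig LUXX01047340.1, 127495 to 145438) was at 29430 to 62840 CPM (median 49330) in the centers and 12310 to 43540 CPM (median 19110) in skin (log2FC 1.11 ± 0.34, adjusted p = 0.0124, 0.73 ± 0.35, adjusted p = 0.122 with the animal as block). COL3A1, the collagen of early scar, was at 35580 to 52590 CPM (median 45150) in the centers and 13960 to 36710 CPM (median 20460) in skin (log2FC 1.01 ± 0.29, adjusted p = 0.00744, 0.66 ± 0.30, adjusted p = 0.104 with the animal as block). COL1A2 was at 19880 to 35150 CPM (median 28040) in the centers and 10120 to 33890 CPM (median 16850) in skin and did not pass (log2FC 0.62 ± 0.32, adjusted p = 0.107, 0.86 and called without the skin sample of pig 1326). The groups overlapped in all 3 genes. Within animals, COL1A1 went from 43540 CPM in skin to 62840 and 55150 in the wounds C and J of pig 1326, from 31470 to 29430 and 50490 in pig 1327, and from 19790 to 46320 and 48170 in pig 1328, so that 5 of the 6 centers were above the skin of the same pig. The minor chains COL5A1 and COL11A1 had larger folds. COL5A1, which nucleates type I fibrils and limits their width, was at 4785 to 6306 CPM (median 5608) in the centers and 459 to 1246 CPM (median 668) in skin (log2FC 2.92 ± 0.27, adjusted p = 1.24e-06). COL11A1, best known from cartilage, was at 93.7 to 433 CPM (median 289) in the centers and 6.45 to 42.0 CPM (median 16.3) in skin (log2FC 3.77 ± 0.54, adjusted p = 4.66e-05). Every center was above every skin sample for both.

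Among the non-fibrillar collagens, 13 of 22 rose and 4 fell (median 1.64). COL4A1, a chain of vascular and other basement membranes, was at 2277 to 5940 CPM (median 3121) in the centers and 289 to 619.5 CPM (median 446) in skin (log2FC 2.99 ± 0.28, adjusted p = 1.12e-06). COL12A1, which sits on the surface of type I fibrils, was at 1246 to 2890 CPM (median 2239) in the centers and 255 to 538 CPM (median 292) in skin (log2FC 2.75 ± 0.25, adjusted p = 9.08e-07), and the groups were separate in both. COL9A2 showed the largest rise, at 58.2 to 192 CPM (median 119) in the centers and 0.940 to 4.94 CPM (median 2.73) in skin (log2FC 5.58 ± 0.43, adjusted p = 2.87e-07). COL8A1 was at 7.88 to 57.6 CPM (median 33.6) in the centers and 3.20 to 17.8 CPM (median 8.36) in skin, with overlap (log2FC 1.82 ± 0.52, adjusted p = 0.00853). The members that fell were COL4A5, COL4A6, COL6A5 and COL23A1. COL4A5 and COL4A6 are chains of epithelial basement membrane, and COL23A1, a transmembrane collagen of keratinocytes, was at 1.16 to 4.26 CPM (median 2.17) in the centers and 11.0 to 19.6 CPM (median 13.2) in skin (log2FC -2.49 ± 0.25, adjusted p = 2.61e-06).

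The enzymes and chaperones that fold, cleave and crosslink collagen rose in 24 of 28 genes and fell in 2 (median 1.88). LOXL2, a lysyl oxidase that crosslinks collagen, was at 691 to 887 CPM (median 776) in the centers and 27.9 to 63.2 CPM (median 39.6) in skin (log2FC 4.29 ± 0.22, adjusted p = 1.27e-08). P4HA3, a prolyl hydroxylase subunit, was at 94.9 to 127 CPM (median 116) in the centers and 2.80 to 12.3 CPM (median 4.61) in skin (log2FC 4.42 ± 0.36, adjusted p = 4.17e-07). PLOD2, the lysyl hydroxylase of the telopeptides, whose activity marks scar-type crosslinks, was at 123 to 179 CPM (median 145) in the centers and 8.28 to 11.3 CPM (median 10.1) in skin (log2FC 3.95 ± 0.12, adjusted p = 8.18e-10). No center overlapped skin in these genes. TGM2, a transglutaminase of matrix and cytosol, showed the largest rise, at 68.0 to 365 CPM (median 126) in the centers and 3.10 to 10.6 CPM (median 5.10) in skin (log2FC 4.85 ± 0.48, adjusted p = 1.87e-06). LOX itself, the founding lysyl oxidase, was at 243 to 481 CPM (median 421) in the centers and 206 to 653 CPM (median 255) in skin and did not pass (log2FC 0.20 ± 0.33, adjusted p = 0.623). P3H2, a prolyl 3-hydroxylase that acts on basement membrane collagen, was lower (log2FC -2.61 ± 0.41, adjusted p = 9.99e-05).

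Matricellular proteins and fibronectin were higher in 16 of 24 and lower in 6 (median 1.85). FN1 (ENSSSCG00025023944, contig LUXX01052760.1, 1600115 to 1672818), the provisional matrix protein on which cells migrate, was at 5916 to 8933 CPM (median 6386) in the centers and 379 to 744 CPM (median 445) in skin (log2FC 3.83 ± 0.24, adjusted p = 5.86e-08). TNC (tenascin C), an adhesion-modulating protein of healing tissue, was at 1498 to 4077 CPM in the centers and 27.6 to 56.8 CPM in skin (log2FC 6.01 ± 0.32, adjusted p = 1.41e-08). SPP1 (osteopontin), made by macrophages and mineralising cells, was at 119 to 2657 CPM (median 933) in the centers and 6.79 to 24.3 CPM (median 16.3) in skin (log2FC 6.22 ± 0.66, adjusted p = 3.57e-06). CTHRC1, a secreted protein of activated fibroblasts, was at 274 to 569.8 CPM (median 491) in the centers and 13.5 to 51.3 CPM (median 32.3) in skin (log2FC 3.76 ± 0.35, adjusted p = 1.09e-06). All 4 genes were higher in every center than in any skin sample. POSTN (periostin), another matricellular protein of fibroblasts, was lower in every center, at 619 to 1602 CPM (median 1213) in the centers and 2736 to 6257 CPM (median 3656) in skin (log2FC -1.77 ± 0.30, adjusted p = 0.000201). CCN3, SMOC1, SMOC2, SPARCL1 and TNXB also fell, with CCN3 at 1.11 to 7.77 CPM (median 4.16) in the centers and 18.0 to 38.1 CPM (median 24.8) in skin (log2FC -2.49 ± 0.40, adjusted p = 0.000116).

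Of the proteoglycans and hyaluronan genes, 11 of 23 rose and 5 fell (median 0.37). ASPN (asporin), a small leucine-rich proteoglycan that binds collagen and TGF-beta, was at 1720 to 2533 CPM (median 2173) in the centers and 36.1 to 114 CPM (median 82.4) in skin (log2FC 4.83 ± 0.35, adjusted p = 1.53e-07). VCAN (versican), a large hyaluronan-binding proteoglycan of provisional matrix, was at 104 to 331 CPM (median 211) in the centers and 58.0 to 93.1 CPM (median 67.7) in skin (log2FC 1.62 ± 0.27, adjusted p = 0.000191). Both were above skin in every center. DCN was at 2149 to 2835 CPM (median 2381) in the centers and 1686 to 4158 CPM (median 2329) in skin, with the center values inside the skin range (log2FC -0.03 ± 0.23, adjusted p = 0.926). HAS2, the main hyaluronan synthase of fibroblasts, was at 2.03 to 13.8 CPM (median 5.56) in the centers and 3.65 to 7.47 CPM (median 5.32) in skin and did not pass (log2FC 0.37 ± 0.38, adjusted p = 0.417), and HAPLN1, which links hyaluronan to proteoglycans, had 0 counts in the centers and 0.888 to 5.52 CPM (median 2.03) in skin (at least 10.5-fold lower, adjusted p = 0.000203).

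In the elastic fiber, 9 of 17 genes rose and 5 fell (median 0.59). ELN (elastin), its core protein, was at 34.6 to 130.3 CPM (median 86.1) in the centers and 337 to 755 CPM (median 406) in skin and below skin in every center (log2FC -2.40 ± 0.31, adjusted p = 1.81e-05). EMILIN1, a glycoprotein at the surface of the fiber, was at 461 to 787 CPM (median 589.6) in the centers and 53.0 to 86.9 CPM (median 59.0) in skin and above skin in every center (log2FC 3.31 ± 0.19, adjusted p = 2.11e-08). EFEMP1 (fibulin 3) was at 1.55 to 39.3 CPM (median 7.85) in the centers and 111 to 142 CPM (median 124) in skin (log2FC -3.25 ± 0.59, adjusted p = 0.000352, -4.01 without the center sample of pig 1328, wound J). FBLN5 and MFAP4, which assemble elastin, overlapped between the groups (log2FC 0.73 ± 0.25, adjusted p = 0.0227, 0.51 ± 0.29, adjusted p = 0.181 with the animal as block for FBLN5, log2FC 0.59 ± 0.24, adjusted p = 0.0437, 0.39 ± 0.32, adjusted p = 0.353 with the animal as block, 0.51 to 0.81 and past the threshold in 3 of 12 fits that left out 1 library for MFAP4).

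Matrix proteases and their inhibitors were higher in 22 of 29 genes and lower in 3 (median 2.57). MMP9 (ENSSSCG00025068399, contig LUXX01101888.1, 2973718 to 2980835), a gelatinase of neutrophils, macrophages and osteoclasts, was at 1040 to 3709 CPM (median 2583) in the centers and 2.20 to 5.77 CPM (median 3.04) in skin (log2FC 9.61 ± 0.48, adjusted p = 1.19e-08). MMP1 (ENSSSCG00025039149, contig LUXX01036107.1, 2458848 to 2501670), the interstitial collagenase, was at 122 to 1956 CPM (median 384) in the centers and 0.300 to 0.628 CPM (median 0.498) in skin (log2FC 10.37 ± 0.78, adjusted p = 2.16e-07, 9.65 without the center sample of pig 1327, wound C). MMP13, a further collagenase, was at 27.8 to 531 CPM (median 151) in the centers and 0 to 0.628 CPM (median 0.406) in skin (log2FC 9.07 ± 0.87, adjusted p = 1.55e-06). The lowest center was many times above the highest skin sample in all 3 genes. MMP2, the gelatinase of fibroblasts, was at 6051 to 8125 CPM (median 6992) in the centers and 636 to 1577 CPM (median 841) in skin (log2FC 2.97 ± 0.27, adjusted p = 9.16e-07). TIMP1, a protease inhibitor, also rose and was at 118 to 596 CPM (median 275) in the centers and 26.2 to 34.6 CPM (median 29.1) in skin (log2FC 3.39 ± 0.29, adjusted p = 7.01e-07). MMP27, TIMP3 and MMP7 fell. MMP7 (matrilysin), which is made by gland and other epithelial cells, was at 0 to 0.289 CPM (median 0.151) in the centers and 5.38 to 16.5 CPM (median 11.6) in skin (log2FC -6.17 ± 0.54, adjusted p = 7.82e-07).

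Markers of resting dermal fibroblasts were split, with 7 of 21 higher and 8 lower (median -0.41). PI16, a marker of adventitial and reticular fibroblasts, was at 2.52 to 101 CPM (median 53.3) in the centers and 425 to 1220 CPM (median 631) in skin (log2FC -3.70 ± 0.67, adjusted p = 0.000336). SCARA5, a ferritin receptor of the same cells, was at 1.10 to 11.1 CPM (median 4.29) in the centers and 75.8 to 181 CPM (median 91.3) in skin (log2FC -4.35 ± 0.42, adjusted p = 1.7e-06). CLEC3B (tetranectin) was lower as well, at 23.7 to 146 CPM (median 65.7) in the centers and 254 to 527 CPM (median 297) in skin (log2FC -2.16 ± 0.40, adjusted p = 0.000363). These genes were below skin in every center. SFRP2, a secreted WNT modulator of papillary and activated fibroblasts, was at 109 to 682 CPM (median 404) in the centers and 7.91 to 24.2 CPM (median 14.9) in skin and above skin in every center (log2FC 4.85 ± 0.47, adjusted p = 1.78e-06). APOD and DPT, other fibroblast genes, overlapped between the groups and did not pass (log2FC -0.77 ± 0.78, adjusted p = 0.409, -2.02 and called without the center sample of pig 1328, wound J and log2FC 0.08 ± 0.43, adjusted p = 0.889).

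Contractile genes were higher in 13 of 24 and lower in 7 (median 0.50). ACTA2 was at 285 to 430.3 CPM (median 378) in the centers and 287 to 576 CPM (median 393) in skin, with overlapping groups (log2FC -0.08 ± 0.17, adjusted p = 0.731). TAGLN (transgelin), which rises in both smooth muscle and myofibroblasts, was at 476 to 691 CPM (median 586) in the centers and 217 to 459 CPM (median 372) in skin and above skin in every center (log2FC 0.79 ± 0.18, adjusted p = 0.00163). ITGA8, an integrin chain of myofibroblasts and pericytes, was at 129 to 345 CPM (median 219) in the centers and 5.86 to 11.3 CPM (median 7.23) in skin (log2FC 4.91 ± 0.25, adjusted p = 1.19e-08). Genes of mature smooth muscle went the other way without overlap, with the heavy chain MYH11 at 46.4 to 92.0 CPM (median 69.0) in the centers and 286 to 532 CPM (median 342) in skin (log2FC -2.42 ± 0.22, adjusted p = 1.08e-06) and the visceral actin ACTG2 at 14.1 to 24.1 CPM (median 16.7) in the centers and 109.5 to 504 CPM (median 342) in skin (log2FC -4.04 ± 0.36, adjusted p = 8.68e-07). CNN1, DES and LMOD1 fell with them.

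Of the skeletogenic and tendon genes, 7 of 18 rose and 5 fell (median -0.29), against 4 and 3 in the 3 animals with their wounds summed and the animal as a block. RUNX2, the transcription factor of bone formation, was at 59.7 to 119.8 CPM (median 63.8) in the centers and 4.21 to 8.22 CPM (median 6.31) in skin and above skin in every center (log2FC 3.64 ± 0.21, adjusted p = 2.27e-08). MATN4 (matrilin 4) was at 0.194 to 1.19 CPM (median 0.692) in the centers and 25.8 to 78.5 CPM (median 36.3) in skin (log2FC -5.87 ± 0.44, adjusted p = 2.06e-07). ACAN (aggrecan) was not called (log2FC -1.05 ± 0.62, adjusted p = 0.164), and SCX, COMP and IBSP were too low to be tested.

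Among 31 tested genes of the HOX clusters and positional TBX and EN1 genes, 12 rose and 13 fell. These transcription factors keep a positional code in skin fibroblasts and some act in hair. HOXD8 was at 29.0 to 60.9 CPM (median 45.4) in the centers and 16.2 to 25.4 CPM (median 20.5) in skin (log2FC 1.22 ± 0.16, adjusted p = 1.83e-05). HOXD1 was at 1.68 to 3.68 CPM (median 2.21) in the centers and 0.180 to 0.578 CPM (median 0.302) in skin (log2FC 2.83 ± 0.33, adjusted p = 7.37e-06). Both were separate from skin. HOXC13, which drives hair keratins, was at 0 to 1.77 CPM (median 0.249) in the centers and 7.65 to 70.6 CPM (median 43.7) in skin (log2FC -5.99 ± 0.79, adjusted p = 2.45e-05, -6.78 without the center sample of pig 1328, wound C).

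In the TGF-beta and activin list, which holds ligands, receptors, antagonists and SMADs of the family that drives matrix production, 16 of 32 genes rose and 10 fell (median 0.40). Among the ligands, TGFB1 was at 162 to 321 CPM (median 211) in the centers and 26.6 to 38.6 CPM (median 30.0) in skin (log2FC 2.99 ± 0.15, adjusted p = 1.19e-08). INHBA, the activin A chain, was at 89.8 to 198 CPM (median 123) in the centers and 2.04 to 3.84 CPM (median 3.58) in skin (log2FC 5.43 ± 0.26, adjusted p = 9.83e-09). TGFB3 was at 39.5 to 125 CPM (median 66.9) in the centers and 14.7 to 28.0 CPM (median 16.8) in skin (log2FC 1.90 ± 0.25, adjusted p = 2.6e-05). All 3 ligands were above skin in every center. The target and inhibitor SMAD7 was at 13.8 to 20.1 CPM (median 17.9) in the centers and 11.7 to 33.3 CPM (median 23.1) in skin and did not pass (log2FC -0.29 ± 0.22, adjusted p = 0.269, -0.43 and called without the skin sample of pig 1324). The BMP ligands BMP2 and BMP7 were among those that fell.

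In the WNT pathway 18 of 36 genes fell and 9 rose (median -0.82). WNT5A, a non-canonical ligand, was at 91.5 to 487 CPM (median 221) in the centers and 19.4 to 30.0 CPM (median 25.2) in skin (log2FC 3.34 ± 0.33, adjusted p = 1.92e-06) and rose with WNT2, SFRP2 and SFRP4. The ligands WNT3, WNT4, WNT6, WNT7B, WNT10A and WNT16, which epidermis or hair follicles make, fell. AXIN2, a feedback target of canonical signalling, was at 6.47 to 18.9 CPM (median 13.4) in the centers and 23.4 to 35.7 CPM (median 29.1) in skin (log2FC -1.03 ± 0.22, adjusted p = 0.00124). LGR5, an R-spondin receptor of hair follicle stem cells, was at 0.246 to 1.21 CPM (median 0.833) in the centers and 29.4 to 54.2 CPM (median 35.2) in skin (log2FC -5.40 ± 0.31, adjusted p = 2.27e-08). Both were below skin in every center. LEF1, a nuclear effector, overlapped and did not pass (log2FC -0.80 ± 0.64, adjusted p = 0.294).

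Growth factors and receptors were higher in 17 of 34 and lower in 10 (median 0.92). With the animal as a block the counts were 10 and 8, where 3447 and 3681 of all 14620 genes were called. PDGFRB, the receptor of pericytes and fibroblasts, was at 621 to 996 CPM (median 705) in the centers and 77.4 to 165 CPM (median 129.6) in skin (log2FC 2.59 ± 0.21, adjusted p = 3.43e-07). ANGPT1, a ligand that stabilises vessels, was at 15.5 to 45.1 CPM (median 21.7) in the centers and 2.17 to 5.27 CPM (median 2.84) in skin (log2FC 3.08 ± 0.28, adjusted p = 9.98e-07). Both were above skin in every center. FGFR3, a receptor of keratinocytes, was at 6.39 to 76.1 CPM (median 15.5) in the centers and 313 to 757 CPM (median 576) in skin and below skin in every center (log2FC -4.11 ± 0.62, adjusted p = 7.32e-05). EGFR, EGF, TGFA, BTC, FGFR2 and MET, also used by epithelia, fell. VEGFA was at 19.2 to 47.5 CPM (median 31.6) in the centers and 18.6 to 37.5 CPM (median 36.0) in skin (log2FC 0.14 ± 0.27, adjusted p = 0.68). IGF1, a growth factor of macrophages and fibroblasts, was at 4.71 to 18.2 CPM (median 10.7) in the centers and 2.88 to 7.94 CPM (median 4.81) in skin, with overlap (log2FC 1.15 ± 0.37, adjusted p = 0.0155, 0.90 ± 0.54, adjusted p = 0.204 with the animal as block).

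Blood endothelium had the largest share of members called higher of the 41 lists, with 27 of 28 genes higher and 0 lower (median 1.69). PECAM1, the junction protein of all endothelium, was at 382 to 712 CPM (median 463) in the centers and 125 to 206 CPM (median 168) in skin (log2FC 1.70 ± 0.17, adjusted p = 2.12e-06). KDR, the main VEGF receptor, was at 82.4 to 199 CPM (median 117) in the centers and 22.9 to 39.1 CPM (median 32.1) in skin (log2FC 2.09 ± 0.20, adjusted p = 1.24e-06). VWF (von Willebrand factor) was at 151 to 387 CPM (median 219) in the centers and 59.4 to 90.1 CPM (median 76.3) in skin (log2FC 1.73 ± 0.19, adjusted p = 3.84e-06). In each the lowest center exceeded the highest skin sample. ANGPT2, released by sprouting endothelium, was at 13.9 to 34.1 CPM (median 16.5) in the centers and 3.25 to 7.79 CPM (median 4.84) in skin (log2FC 2.01 ± 0.26, adjusted p = 2.13e-05). SELP (P-selectin), which captures leukocytes on activated venules, was at 10.8 to 56.9 CPM (median 21.7) in the centers and 0.400 to 2.58 CPM (median 1.06) in skin (log2FC 4.38 ± 0.48, adjusted p = 4.32e-06). MMRN2 was the member not called (24.98 to 46.5 CPM (median 29.1) in the centers and 25.5 to 36.6 CPM (median 26.0) in skin, log2FC 0.22 ± 0.16, adjusted p = 0.255).

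Of the lymphatic genes, 9 of 12 rose and 1 fell (median 1.34). LYVE1, a hyaluronan receptor that some macrophages also carry, was at 20.5 to 51.7 CPM (median 28.7) in the centers and 3.41 to 10.6 CPM (median 8.90) in skin (log2FC 2.11 ± 0.28, adjusted p = 2.29e-05). STAB2 was at 1.12 to 3.23 CPM (median 2.63) in the centers and 0 to 0.839 CPM (median 0.310) in skin (log2FC 2.82 ± 0.55, adjusted p = 0.000639). PROX1, the transcription factor that defines lymphatic identity, was at 1.29 to 4.26 CPM (median 3.27) in the centers and 0.934 to 4.84 CPM (median 2.87) in skin and did not pass (log2FC 0.25 ± 0.38, adjusted p = 0.591). CCL21, the chemokine of lymphatic vessels, overlapped between the groups (log2FC 0.99 ± 0.37, adjusted p = 0.033, 0.80 ± 0.48, adjusted p = 0.204 with the animal as block, 0.69 to 1.19 and past the threshold in 7 of 12 fits that left out 1 library). TBX1 fell (log2FC -2.29 ± 0.15, adjusted p = 5.93e-08). Of 5 erythrocyte genes tested, 4 rose and 0 fell, with the hemoglobin HBB at 5.29 to 150.1 CPM (median 44.7) in the centers and 0.400 to 17.5 CPM (median 3.06) in skin (log2FC 3.70 ± 0.89, adjusted p = 0.00279, 4.58 without the skin sample of pig 1325). The part of blood in the biopsy in other results was not tested.

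Macrophage genes were higher in 23 of 26 and lower in 1 (median 2.77). CD163, the scavenger receptor for hemoglobin, was at 181 to 808 CPM (median 310.3) in the centers and 19.5 to 45.0 CPM (median 29.5) in skin (log2FC 3.71 ± 0.42, adjusted p = 6.04e-06). CSF1R, the receptor that keeps macrophages alive, was at 306 to 556 CPM (median 355) in the centers and 64.2 to 135 CPM (median 98.1) in skin (log2FC 1.99 ± 0.23, adjusted p = 6.77e-06). The lysosomal protein CD68 was at 75.9 to 249 CPM (median 162) in the centers and 8.96 to 17.9 CPM (median 14.2) in skin (log2FC 3.60 ± 0.31, adjusted p = 6.67e-07). The groups were apart in all 3 genes. ARG1, the arginase of alternatively activated macrophages, showed the largest rise, at 28.3 to 666 CPM (median 327) in the centers and 0 to 1.78 CPM (median 0.923) in skin (log2FC 8.49 ± 0.86, adjusted p = 2.45e-06). LGALS3 (galectin 3), which keratinocytes also make, was the member called lower, at 266 to 727 CPM (median 538) in the centers and 782 to 1030 CPM (median 843) in skin (log2FC -0.64 ± 0.25, adjusted p = 0.0397, -0.61 ± 0.38, adjusted p = 0.216 with the animal as block, -0.77 to -0.46 and past the threshold in 2 of 12 fits that left out 1 library).

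Genes of osteoclasts and multinucleated giant cells, which arise by fusion of macrophages, were higher in 14 of 16 and lower in 0 (median 3.95). ACP5, the tartrate-resistant acid phosphatase, was at 224 to 1067 CPM (median 366) in the centers and 21.5 to 41.6 CPM (median 24.7) in skin (log2FC 4.21 ± 0.39, adjusted p = 1.26e-06). DCSTAMP, a fusion protein, had 0 counts in all 6 skin samples and 4.13 to 23.0 CPM (median 11.0) in the centers (at least 57.5-fold higher, adjusted p = 8.47e-06). TM4SF19, another gene induced in osteoclasts and outside the list, had counts in 1 skin sample only and 4.71 to 16.6 CPM (median 9.85) in the centers (1120-fold, with a 95% counting interval from 200.0 to 44100, adjusted p = 1.27e-07). ATP6V0D2, a proton pump subunit needed for fusion, was at 0.581 to 76.0 CPM (median 20.2) in the centers and 0.599 to 2.71 CPM (median 1.08) in skin, with wound C of pig 1327 just below the lowest skin sample (log2FC 4.53 ± 0.85, adjusted p = 0.000438, 3.86 without the center sample of pig 1326, wound J). CA2, the carbonic anhydrase of osteoclasts, which epithelia also make, was at 3.42 to 88.2 CPM (median 12.8) in the centers and 35.1 to 129.7 CPM (median 77.8) in skin and did not pass (log2FC -1.54 ± 0.71, adjusted p = 0.0762, -2.72 ± 0.77, adjusted p = 0.0199 with the animal as block, -2.51 and called without the center sample of pig 1326, wound J). It was also called lower with limma-voom, with all 150 samples in a single fit, and in the 3 animals with their wounds summed.

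Complement rose in 17 of 25 genes and fell in 1 (median 1.63). C3, the central component, was at 417 to 1474 CPM (median 740.1) in the centers and 16.3 to 39.2 CPM (median 23.7) in skin (log2FC 4.99 ± 0.34, adjusted p = 1.03e-07). C1QA, a chain of the initiating complex that macrophages make, was at 256 to 361 CPM (median 329) in the centers and 38.6 to 83.5 CPM (median 66.6) in skin (log2FC 2.43 ± 0.21, adjusted p = 6.29e-07). ITGAX, a chain of complement receptor 4 on myeloid cells, was at 80.4 to 271 CPM (median 154) in the centers and 4.13 to 6.69 CPM (median 5.25) in skin (log2FC 5.07 ± 0.29, adjusted p = 2.71e-08). The lowest center was above the highest skin sample in each. C5 was lower (1.05 to 2.02 CPM (median 1.63) in the centers and 4.91 to 7.89 CPM (median 5.61) in skin, log2FC -1.87 ± 0.22, adjusted p = 1.05e-05), and CFB was not called (log2FC 0.40 ± 0.48, adjusted p = 0.498, -0.25 without the center sample of pig 1328, wound J).

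Neutrophil and inflammatory cytokine genes were higher in 18 of 23 and lower in 2 (median 3.42). CXCL8 (ENSSSCG00025017428, contig LUXX01018793.1, 3456350 to 3459574), the main neutrophil chemokine, was at 13.9 to 795 CPM (median 223) in the centers and 0 to 0.573 CPM (median 0.0989) in skin (log2FC 10.83 ± 1.04, adjusted p = 1.56e-06, 11.66 without the skin sample of pig 1325). CSF3R, the G-CSF receptor of neutrophils, was at 22.2 to 268 CPM (median 96.9) in the centers and 1.20 to 5.31 CPM (median 2.16) in skin (log2FC 5.52 ± 0.58, adjusted p = 3.2e-06). Every center was above every skin sample in both. IL1B, an early cytokine, was at 0.520 to 184 CPM (median 16.9) in the centers and 0 to 0.127 CPM (median 0.0467) in skin but had too few counts in 1 center to reach the count filter, so it was not tested. LTF (lactoferrin), a granule protein that glands secrete too, was lower, at 0.0578 to 1.11 CPM (median 0.444) in the centers and 8.39 to 33.1 CPM (median 23.4) in skin (log2FC -5.49 ± 0.52, adjusted p = 1.43e-06).

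T and NK cell genes were higher in 26 of 29 and lower in 2 (median 3.60). CD3E, a chain of the T cell receptor complex, was at 8.48 to 89.8 CPM (median 20.6) in the centers and 0.794 to 1.83 CPM (median 1.34) in skin (log2FC 4.53 ± 0.54, adjusted p = 9.52e-06, 3.93 without the center sample of pig 1327, wound C). CD8A, of cytotoxic T cells, was at 4.49 to 19.1 CPM (median 10.4) in the centers and 0 to 2.05 CPM (median 0.911) in skin (log2FC 3.54 ± 0.59, adjusted p = 0.000167). CTLA4, an inhibitory receptor, was at 0.748 to 24.9 CPM (median 2.47) in the centers and 0 to 0.0522 CPM (median 0) in skin, with 1 count in a skin sample and 0 in the others (center over skin 630.0-fold, with a 95% counting interval from 113 to 24900, adjusted p = 3.99e-05). Its fitted log2FC was 7.198 without the center sample of pig 1327, wound C, the highest, and 9.64 without the skin sample of pig 1323. These genes did not overlap between the groups. FOXP3, of regulatory T cells, overlapped, at 0.686 to 4.00 CPM (median 2.15) in the centers and 0.0599 to 1.26 CPM (median 0.993) in skin (log2FC 1.41 ± 0.52, adjusted p = 0.0316, 1.70 ± 0.79, adjusted p = 0.108 with the animal as block, 1.17 to 1.60 and past the threshold in 8 of 12 fits that left out 1 library). GATA3, a factor of type 2 T cells that keratinocytes and hair follicles also express, was at 8.03 to 16.9 CPM (median 9.73) in the centers and 153 to 369 CPM (median 328) in skin and fell (log2FC -4.67 ± 0.25, adjusted p = 1.65e-08).

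B and plasma cell genes were higher in 13 of 18 and lower in 1 (median 2.60). JCHAIN, which joins secreted antibodies, was at 7.36 to 633 CPM (median 45.0) in the centers and 4.00 to 12.1 CPM (median 6.81) in skin (log2FC 4.61 ± 1.01, adjusted p = 0.00145, 3.38 without the center sample of pig 1326, wound C). MZB1, a chaperone of plasma cells, was at 2.16 to 339 CPM (median 5.33) in the centers and 0 to 1.36 CPM (median 0.983) in skin (log2FC 6.24 ± 1.48, adjusted p = 0.00254, 2.92 without the center sample of pig 1326, wound C). POU2AF1 showed the largest rise, at 1.00 to 139 CPM (median 2.99) in the centers and 0 to 0.300 CPM (median 0.206) in skin (log2FC 7.35 ± 1.60, adjusted p = 0.00139, 4.16 without the center sample of pig 1326, wound C). The highest center of these was wound C of pig 1326. MS4A1 (CD20), of B cells, was at 0.369 to 2.60 CPM (median 2.10) in the centers and 0 to 0.789 CPM (median 0.259) in skin, with overlap (log2FC 2.46 ± 0.74, adjusted p = 0.0112, 2.11 ± 1.04, adjusted p = 0.126 with the animal as block). SDC1 (syndecan 1), of plasma cells and of keratinocytes, was lower, at 171 to 463 CPM (median 246) in the centers and 471 to 559 CPM (median 524) in skin (log2FC -0.78 ± 0.22, adjusted p = 0.00786, -0.84 ± 0.33, adjusted p = 0.0657 with the animal as block).

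Of the mast cell and dendritic cell genes, 8 of 12 rose and 2 fell (median 1.52). CCR7, which leads mature dendritic cells to lymph vessels, was at 10.7 to 109 CPM (median 18.3) in the centers and 0.327 to 1.26 CPM (median 0.576) in skin and above skin in every center (log2FC 5.78 ± 0.64, adjusted p = 5.54e-06, 5.06 without the center sample of pig 1327, wound C). CD207 (langerin), of epidermal Langerhans cells, was at 0.187 to 1.36 CPM (median 0.403) in the centers and 1.07 to 13.1 CPM (median 5.20) in skin (log2FC -3.29 ± 0.59, adjusted p = 0.000313). FCER1A, the IgE receptor chain of mast cells, did not pass (log2FC -0.79 ± 0.49, adjusted p = 0.183, -1.61 and called without the center sample of pig 1327, wound C).

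Interferon response genes rose in 20 of 23 and fell in 0 (median 1.24). IFIT2, an antiviral effector, was at 11.7 to 103 CPM (median 37.1) in the centers and 5.08 to 7.31 CPM (median 6.14) in skin and above skin in every center (log2FC 2.80 ± 0.40, adjusted p = 4.26e-05). MX1 and ISG15, the most used readouts of this response, overlapped between the groups. MX1 was at 20.1 to 85.1 CPM (median 36.2) in the centers and 8.17 to 33.6 CPM (median 16.5) in skin (log2FC 1.24 ± 0.36, adjusted p = 0.00913). ISG15 was at 13.6 to 73.2 CPM (median 30.4) in the centers and 8.83 to 24.97 CPM (median 16.8) in skin (log2FC 1.13 ± 0.34, adjusted p = 0.0113, 1.24 ± 0.50, adjusted p = 0.0738 with the animal as block). IFI6 was not called (log2FC 0.35 ± 0.26, adjusted p = 0.256).

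Of the cell cycle genes, 22 of 41 were higher and 1 lower (median 0.64). With the animal as a block only 9 were higher, and 14 against the skin of the same 3 animals. Over all genes, 3447 of 14620 and 3699 of 15241 were higher in these 2 fits. CCNB1, the mitotic cyclin, was at 17.9 to 48.9 CPM (median 23.5) in the centers and 12.7 to 16.5 CPM (median 14.6) in skin (log2FC 1.02 ± 0.21, adjusted p = 0.000958). The mitotic kinase PLK1 was at 15.9 to 44.9 CPM (median 20.2) in the centers and 7.04 to 11.3 CPM (median 10.2) in skin (log2FC 1.46 ± 0.24, adjusted p = 0.000132). Both were above skin in every center. MKI67, the proliferation antigen, was at 39.6 to 168 CPM (median 58.7) in the centers and 30.3 to 56.6 CPM (median 41.8) in skin, with overlap (log2FC 1.10 ± 0.36, adjusted p = 0.016, 1.12 ± 0.48, adjusted p = 0.086 with the animal as block). TOP2A was at 43.5 to 148 CPM (median 68.4) in the centers and 48.9 to 65.7 CPM (median 62.4) in skin and did not pass (log2FC 0.64 ± 0.27, adjusted p = 0.0574, 0.43 to 0.78 and past the threshold in 3 of 12 fits that left out 1 library). TTK, a checkpoint kinase, was lower (log2FC -0.76 ± 0.27, adjusted p = 0.0274, -0.82 ± 0.37, adjusted p = 0.103 with the animal as block, -0.92 to -0.60 and past the threshold in 5 of 12 fits that left out 1 library).

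Immediate early genes, which respond within minutes to stress and to handling, were higher in 6 of 23 and lower in 6 (median -0.12). FOS and EGR1 did not pass (log2FC -0.87 ± 0.39, adjusted p = 0.0676, -1.16 and called without the center sample of pig 1326, wound C, -1.01 and called without the skin sample of pig 1323 and log2FC -0.07 ± 0.41, adjusted p = 0.894). NR4A3, a nuclear receptor, was at 3.52 to 29.3 CPM (median 16.3) in the centers and 0.685 to 1.15 CPM (median 0.958) in skin and above skin in every center (log2FC 4.19 ± 0.52, adjusted p = 1.35e-05). KLF4, a factor of differentiated keratinocytes as well, was at 13.2 to 61.6 CPM (median 36.2) in the centers and 463 to 892 CPM (median 753) in skin and below skin in every center (log2FC -4.13 ± 0.35, adjusted p = 6.22e-07). JUNB overlapped (log2FC 0.83 ± 0.29, adjusted p = 0.0235, 0.88 ± 0.38, adjusted p = 0.0914 with the animal as block, 0.75 and not called without the skin sample of pig 1323).

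Hypoxia and glycolysis genes were split, with 13 of 27 higher and 7 lower (median 0.20). SLC16A3, the lactate exporter, was at 12.2 to 96.1 CPM (median 28.0) in the centers and 1.60 to 4.59 CPM (median 2.57) in skin (log2FC 4.09 ± 0.53, adjusted p = 2.12e-05). LDHA, which makes lactate, was at 257 to 1269 CPM (median 504) in the centers and 174 to 282 CPM (median 208) in skin, with overlap (log2FC 1.67 ± 0.32, adjusted p = 0.000472). SLC2A1, the glucose transporter of keratinocytes and red cells, was at 51.5 to 123 CPM (median 85.3) in the centers and 150.4 to 243 CPM (median 193) in skin (log2FC -1.08 ± 0.21, adjusted p = 0.000648). PDK1, which diverts pyruvate from mitochondria, was at 38.9 to 82.6 CPM (median 50.3) in the centers and 162 to 296 CPM (median 243) in skin (log2FC -2.01 ± 0.20, adjusted p = 1.8e-06). The last 2 genes were below skin in every center.

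Oxidative stress defense rose in 13 of 29 genes and fell in 12 (median -0.03). HMOX1, the heme oxygenase of macrophages and stressed cells, was at 172 to 465 CPM (median 362) in the centers and 8.91 to 24.9 CPM (median 18.9) in skin and above skin in every center (log2FC 4.29 ± 0.34, adjusted p = 3.43e-07). GPX2, an epithelial glutathione peroxidase, was at 0.125 to 8.79 CPM (median 1.31) in the centers and 21.8 to 34.7 CPM (median 26.5) in skin and below skin in every center (log2FC -3.38 ± 0.73, adjusted p = 0.00128, -4.53 without the center sample of pig 1326, wound J). NQO1 and SOD3, quinone reductase and extracellular superoxide dismutase, were lower with overlap (log2FC -0.83 ± 0.25, adjusted p = 0.0112, -0.84 ± 0.31, adjusted p = 0.0544 with the animal as block and log2FC -1.31 ± 0.39, adjusted p = 0.0107).

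Few genes of the mitochondrial respiratory chain passed the test. Of 41 nuclear genes, 8 rose and 3 fell (median 0.11), and 4 and 1 did so with the animal as a block. Without the center of pig 1327, wound C, 14 rose, where 4607 of all 14904 genes were called higher. NDUFA2 and NDUFA5, accessory subunits of complex I, were called in opposite directions (log2FC 0.90 ± 0.12, adjusted p = 1.89e-05 for the former and log2FC -0.69 ± 0.11, adjusted p = 9.42e-05 for the latter). NDUFA4, a subunit tied to complex IV, did not pass (log2FC 0.25 ± 0.14, adjusted p = 0.134, 0.36 and called without the center sample of pig 1327, wound C).

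Genes outside the lists were named by size of change. SAA2 (serum amyloid A), an acute phase protein that macrophages and epithelia make locally, showed the largest fitted rise among genes with a median count of at least 100 in the higher group. It was at 58.2 to 1892 CPM (median 471) in the centers and 0.0522 to 0.473 CPM (median 0.278) in skin, with no overlap (log2FC 11.53 ± 1.15, adjusted p = 2.16e-06). MLNR (motilin receptor) had 0 counts in all skin samples and 6.71 to 11.99 CPM (median 7.88) in the centers (at least 41.2-fold higher, adjusted p = 4.34e-07). IGHG2, an immunoglobulin heavy chain, was at 29.4 to 20310 CPM (median 73.4) in the centers and 2.28 to 7.84 CPM (median 4.73) in skin (log2FC 9.66 ± 2.03, adjusted p = 0.00106, 5.43 ± 2.06, adjusted p = 0.0589 with the animal as block, 4.36 without the center sample of pig 1326, wound C). The light chain segment IGLV3-25 was at 2.99 to 765 CPM (median 13.3) in the centers and 0 to 0.892 CPM (median 0.333) in skin (log2FC 8.61 ± 1.72, adjusted p = 0.000713, 5.06 without the center sample of pig 1326, wound C). Wound C of pig 1326 was the highest center in both. ADH1, an alcohol dehydrogenase, had 0 counts in all centers and 31.5 to 173 CPM (median 136) in skin (at least 702-fold lower, adjusted p = 2.27e-06). By share of all counts, the largest rises were of COL1A1, COL3A1, COL1A2, FN1, MMP2 and COL5A1, and the largest falls of KRT10, KRT1, KRT5, DSP, EEF1A1 and KRT2. DSP (desmoplakin), the linker of desmosomes, was at 11.7 to 816 CPM (median 119) in the centers and 4491 to 6140 CPM (median 5788) in skin (log2FC -4.20 ± 1.00, adjusted p = 0.00253, -4.94 without the center sample of pig 1326, wound J). KRT2, a keratin of the upper layers, was at 0.646 to 25.1 CPM (median 9.44) in the centers and 2125 to 6598 CPM (median 6157) in skin (log2FC -8.79 ± 0.84, adjusted p = 1.46e-06). EEF1A1, a translation elongation factor of all cells, was at 6755 to 8434 CPM (median 8003) in the centers and 11270 to 15230 CPM (median 12580) in skin (log2FC -0.63 ± 0.15, adjusted p = 0.00222, -0.58 ± 0.22, adjusted p = 0.0572 with the animal as block).

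On average, the 6 centers were less alike than the 6 skin samples. The mean correlation of log2 levels across 14620 genes between pairs of samples was 0.9531 in the centers (0.9246 to 0.9795) and 0.9681 in skin (0.9309 to 0.9829). It was 0.9616 at the edges of the same wounds (0.941 to 0.9763). The median SD of a gene was 0.299, 0.246 and 0.273 log2 units in the same order. Skin samples were whole excisions and centers small punches, and the part of this in the spread was not tested. Genes are not independent replicates, so these are descriptions. Pairs of wounds of an animal had a mean correlation of 0.9584 (3 pairs) and wounds of different animals 0.9518 (12 pairs). A test of differences between the 3 animals called 0 of 14652 genes with edgeR, 1316 had an unadjusted p under 0.05, and DESeq2 called 479. Wound J against wound C, with the animal as a term, called 0 of 14147 with edgeR, with 978 at an unadjusted p under 0.05 and 170 by DESeq2.

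Epidermal genes had much of this spread. KRT5 was at 506 and 2044 CPM in wounds C and J of pig 1326, at 24.1 and 47.0 CPM in pig 1327 and at 1579 and 37.5 CPM in pig 1328. KRT6C followed the same order of samples, from 69.2 CPM in wound C of pig 1327 to 7231 CPM in wound J of pig 1326. Wounds J of pig 1326 and C of pig 1328 were the highest in both, and the pigs did not separate. The ratio of the CPM of KRT10 to that of KRT5 was 0.0156 in wound J of pig 1326 and 0.046 in wound C of pig 1328, the 2 centers with the most KRT5. It was 0.253 to 1.82 in the other 4 centers and 1.49 to 2.7 in skin.

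Immune and fat genes separated other samples. IGHG2 was at 20310 CPM in wound C of pig 1326 and at 29.4 to 214.4 CPM in the other 5 centers. In the same sample CXCL8 was at its lowest, 13.9 CPM, and IL1B at 0.52 CPM. Wound C of pig 1327 had the most CXCL8 (795 CPM), IL1B (184.4 CPM), MMP1 (1956 CPM) and CD3E (89.8 CPM), and the least SPP1 (119 CPM) and ADIPOQ (1.16 CPM). ADIPOQ, PLIN1 and PLIN4 of adipocytes, IGHG2, and the keratinocyte genes DSG3, KRT5, KRT6B and KRT6C were the 8 genes with the largest SD among the centers.

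**Figure D3:**
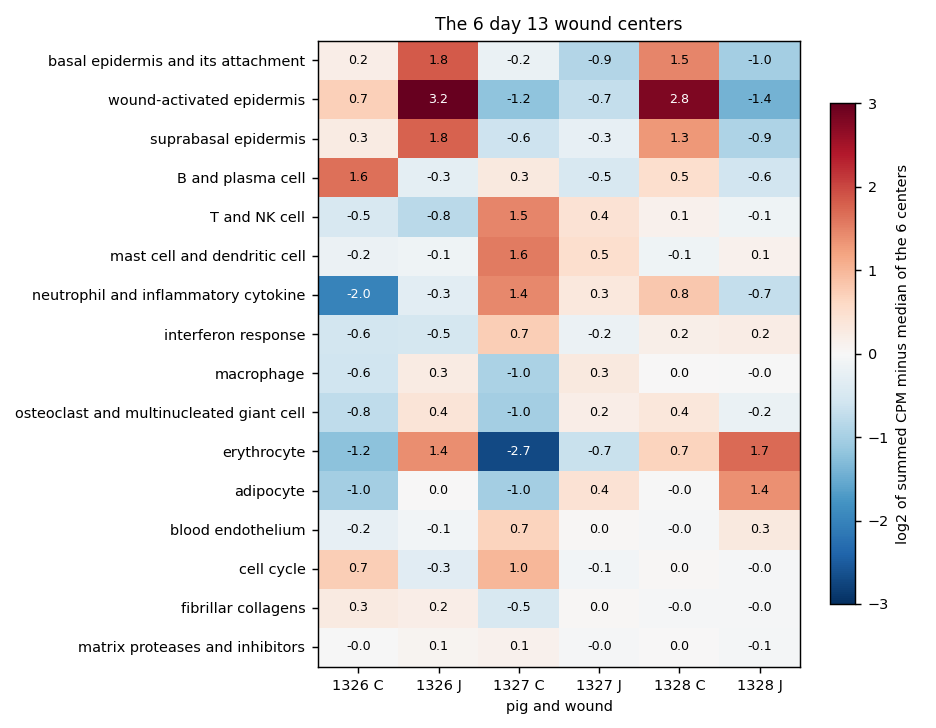
Summed CPM of 16 gene lists in each of the 6 day 13 centers, as the log2 difference from the median of the 6; columns are the wounds C and J of pigs 1326, 1327 and 1328. Wounds J of pig 1326 and C of pig 1328 stand highest in the epidermal lists (3.16 and 2.81 in the wound-activated list), and wound C of pig 1327 stands highest in the neutrophil and cytokine list (1.45).

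The edge of the same 6 wounds was sampled on the same day, and was compared with the center. Of 14166 genes tested, 4024 (28.4%) differed between center and edge, 1675 (11.8%) higher and 2349 (16.6%) lower in the center, and 639 (4.51%) and 1254 (8.85%) were called with a difference of at least 2-fold. Center and edge samples did not overlap for 706 genes (4.98%) higher and 1329 (9.38%) lower. Scaled by library totals only, 2109 were higher and 1889 lower. With the wound as a block 4564 of 14166 genes passed, 2014 higher and 2550 lower. With the 2 wounds of an animal summed, 2264 of 15450 did so, 761 higher and 1503 lower. The center was lower in many epidermal genes and higher in many genes of endothelium, macrophages, T and NK cells and complement. Most fibrillar collagens did not pass. Of the B and plasma cell genes, 3 of 20 were higher and 1 lower, and of the mast cell and dendritic cell genes 4 of 11 and 0. With the wounds of an animal summed, 0 genes of either list were higher. Fold changes in the next paragraphs are center over edge.

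The suprabasal list was lower in the center in 20 of 22 genes and higher in 0. KRT10 was at 1583 to 19990 CPM (median 9693) at the edges, above every center (log2FC -7.28 ± 0.87, adjusted p = 0.000117), and FLG2 at 298 to 1501 CPM (median 705) (log2FC -7.51 ± 0.69, adjusted p = 3.73e-05). RPTN (repetin), C5orf46, KRT77 and DSC1 also had some of the largest differences (log2FC -7.50 ± 0.75, adjusted p = 4.68e-05 for DSC1). The barrier lipid list was lower in 16 of 18 and higher in 1, and cholesterol synthesis lower in 19 of 23. The basal list was lower in 8 of 18 genes and the wound-activated list in 7 of 12. The basal count was 12 with the wound as a block, and with the wounds of an animal summed the counts were 3 and 2. KRT6C was at 4693 to 29710 CPM (median 17050) at the edges (log2FC -3.16 ± 1.07, adjusted p = 0.0427, -4.20 to -2.90 and past the threshold in 3 of 12 fits that left out 1 library), and S100A8 at 359 to 3454 CPM (median 1031) (log2FC -2.94 ± 0.78, adjusted p = 0.0137, -3.67 without the center sample of pig 1328, wound C, -2.36 without the edge sample of pig 1327, wound C). For S100A8, the median of the centers thus lay above that of skin and below that of the edges, but the ranges of center and edge overlapped. Hypoxia and glycolysis genes were lower in 11 of 27 and higher in 1, or 3 with the block, and in 7 and 0 with the wounds summed, among them SLC2A1 (log2FC -2.22 ± 0.31, adjusted p = 0.000287) and VEGFA (log2FC -0.86 ± 0.26, adjusted p = 0.0264, -1.01 to -0.75 and past the threshold in 7 of 12 fits that left out 1 library), both lower.

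Genes that were higher in the center than at the edge included those of endothelium, in 14 of 28 genes and 0 lower, of macrophages, in 17 of 27, and of T and NK cells, in 17 of 30. With the wounds of an animal summed these counts fell to 8, 9 and 4. Of the macrophage and of the T and NK cell genes, 1 each was lower. PECAM1 was at 209.8 to 391 CPM (median 278) at the edges (log2FC 0.70 ± 0.17, adjusted p = 0.00879), CD163 at 44.1 to 252 CPM (median 58.8) (log2FC 1.83 ± 0.50, adjusted p = 0.0151) and CD3E at 1.89 to 12.7 CPM (median 5.12) (log2FC 2.14 ± 0.58, adjusted p = 0.0148, 1.48 without the center sample of pig 1327, wound C). Complement was higher in 12 of 25 and lower in 1, with C3 at 64.3 to 277 CPM (median 83.4) at the edges (log2FC 2.62 ± 0.40, adjusted p = 0.000496). The neutrophil and cytokine list was higher in 10 of 27 and lower in 3, or 2 and 2 with the wounds of an animal summed. The largest rises by rule were of SPHKAP, a kinase anchor protein (5.07 to 25.8 CPM (median 16.5) in the centers and 0 to 4.07 CPM (median 0.261) at the edges), MLANA (log2FC 3.29 ± 0.72, adjusted p = 0.00481, 4.14 without the edge sample of pig 1327, wound J), C3, the dopamine receptor DRD1 (log2FC 2.61 ± 0.46, adjusted p = 0.00129), the interleukin 21 receptor IL21R (36.3 to 171 CPM (median 58.5) in the centers and 4.29 to 28.5 CPM (median 12.8) at the edges, log2FC 2.32 ± 0.43, adjusted p = 0.00163) and the sugar transporter SLC2A6 (log2FC 2.24 ± 0.36, adjusted p = 0.000719). No center overlapped an edge in these 6 genes, which the rule required.

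Matrix genes were closer between the sites. Fibrillar collagens were higher in the center in 1 of 9, with COL1A1 at 26670 to 55450 CPM (median 41620) at the edges (log2FC 0.17 ± 0.26, adjusted p = 0.679) and COL5A1 at 2920 to 5094 CPM (median 4700) (log2FC 0.26 ± 0.19, adjusted p = 0.348). Collagen processing genes were higher in 11 of 28 and lower in 1, and proteases and inhibitors in 11 and 2 of 28. With the wounds of an animal summed, 0 fibrillar collagens, 6 collagen processing genes and 6 proteases and inhibitors were higher. FN1 was at 1316 to 3978 CPM (median 2697) at the edges, below every center (log2FC 1.36 ± 0.27, adjusted p = 0.00267), while TNC was not called (log2FC 0.54 ± 0.27, adjusted p = 0.16). MMP1 was higher in the center (log2FC 2.96 ± 0.91, adjusted p = 0.0273, 2.18 to 4.25 and past the threshold in 7 of 12 fits that left out 1 library), and MMP9, at 77.6 to 2678 CPM (median 291) at the edges, did not pass (log2FC 1.62 ± 0.71, adjusted p = 0.11, 2.19 ± 0.60, adjusted p = 0.025 with the wound as block, 2.61 and called without the edge sample of pig 1327, wound J). MMP9 was also called higher with limma-voom and with all 150 samples in a single fit. POSTN was at 1631 to 5659 CPM (median 2540) at the edges and lower in every center (log2FC -1.51 ± 0.36, adjusted p = 0.00806). Of 16 osteoclast and giant cell genes, 2 were higher in the center, or 6 with the block and 1 with the wounds of an animal summed, and 1 was lower. Of 24 interferon response genes, 4 were lower, or 1 with the block and 1 with the wounds of an animal summed, and 1 higher. Of 41 cell cycle genes, 0 were called in either direction.

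**Figure D4:**
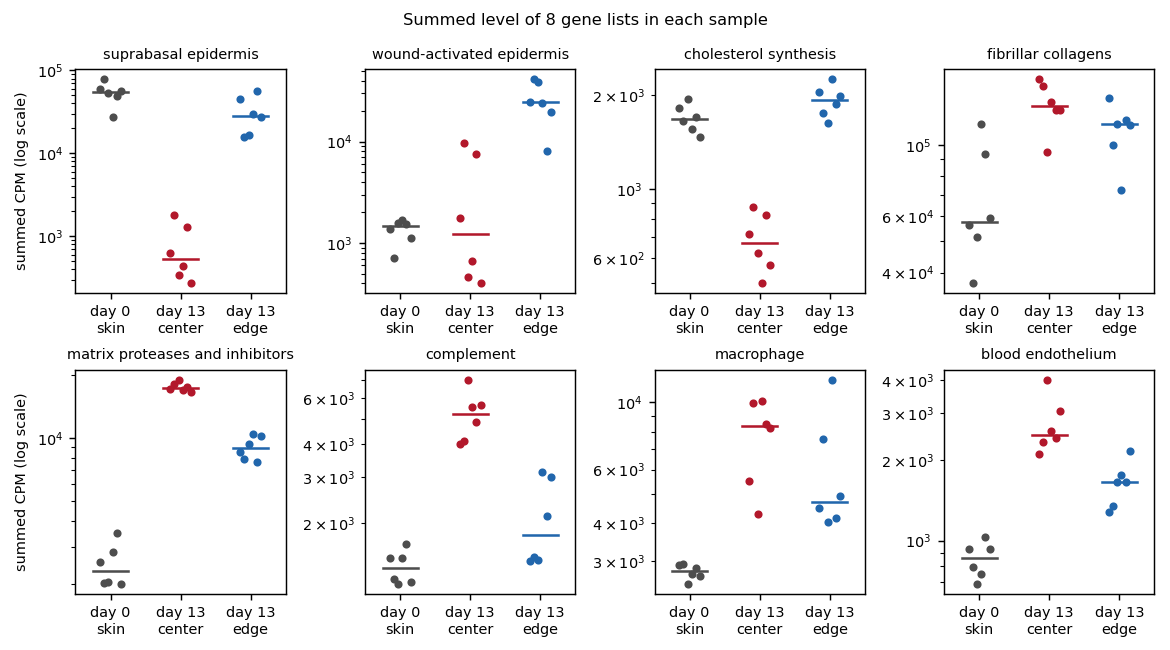
Summed CPM of 8 gene lists on log axes in day 0 skin, day 13 center and day 13 edge, with 6 samples each as points and a line at the median. The suprabasal list is low in the center alone (medians of 55160, 539 and 28550 CPM in skin, center and edge), the fibrillar collagen list is similar in center and edge, and the macrophage and endothelium lists are highest in the center.

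The wound center of the same 3 animals was also sampled on day 9, from other wounds (E and H), and was compared with day 13. edgeR called 0 of 14021 genes (0.0%), with 1115 at an unadjusted p under 0.05. DESeq2 called 221 genes, 171 higher and 50 lower on day 13, and the fit of all 150 samples called 383. The groups did not overlap for 35 genes (0.25%) higher and 21 (0.15%) lower on day 13. With the animal as a block the count stayed at 0. No list member was called with edgeR, which does not show that the center had stayed the same. The median log2 fold change of members, day 13 over day 9, was 3.32 in the basal and 1.72 in the wound-activated list. It was -1.35 in the neutrophil and cytokine list. In the suprabasal list it was 1.57, though the median summed level of that list was lower on day 13. The other values here are levels. KRT5 was at 12.9 to 233 CPM (median 38.8) on day 9 and 24.1 to 2044 CPM (median 277) on day 13, and KRT6C at 13.9 to 229 CPM (median 67.4) and 69.2 to 7231 CPM (median 737), with overlapping ranges. CXCL8 was at 228 to 8094 CPM (median 1150) on day 9 and MMP9 at 769.6 to 7568 CPM (median 2097), also overlapping with day 13. A day 9 library held muscle genes at a summed 49630 CPM, against 255.8 to 433.8 CPM in the day 13 centers, and without any 1 of the 6 day 9 libraries edgeR called 0 or 1 gene.

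Across the centers of these 3 animals, from skin through days 2, 4, 6, 9, 13, 16 and 19, the epidermal lists stood at different levels relative to skin on day 13. The median summed level of the suprabasal list was 49590 CPM in skin, and 943, 539, 1007 and 17490 CPM on days 9, 13, 16 and 19. The basal list had medians of 18370 CPM in skin and 1793, 3366, 7401 and 25370 CPM on days 9, 13, 16 and 19, with a range of 1646 to 11940 CPM on day 13. The wound-activated list had a median of 1545 CPM in skin (1112 to 1670) and medians of 488, 1214, 4443 and 21760 CPM on days 9, 13, 16 and 19. On day 13 it ranged from 407 to 9671 CPM, on both sides of the skin range. The fibrillar collagen list had medians of 30650, 109900, 132100, 144300 and 142800 CPM on days 2, 9, 13, 16 and 19. The osteoclast and giant cell list had its highest median on day 13, at 3625 CPM (1762 to 4709), against 2692 on day 9 (1491 to 9242) and 1869 on day 16. The ranges of days 9 and 13 overlapped. The median log2 fold change of its members, day 13 over day 9, was -0.04. MMP9, which neutrophils and macrophages also make, made up much of this sum. Each day has other wounds of the same animals, and no test was made across these days.

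**Figure D5:**
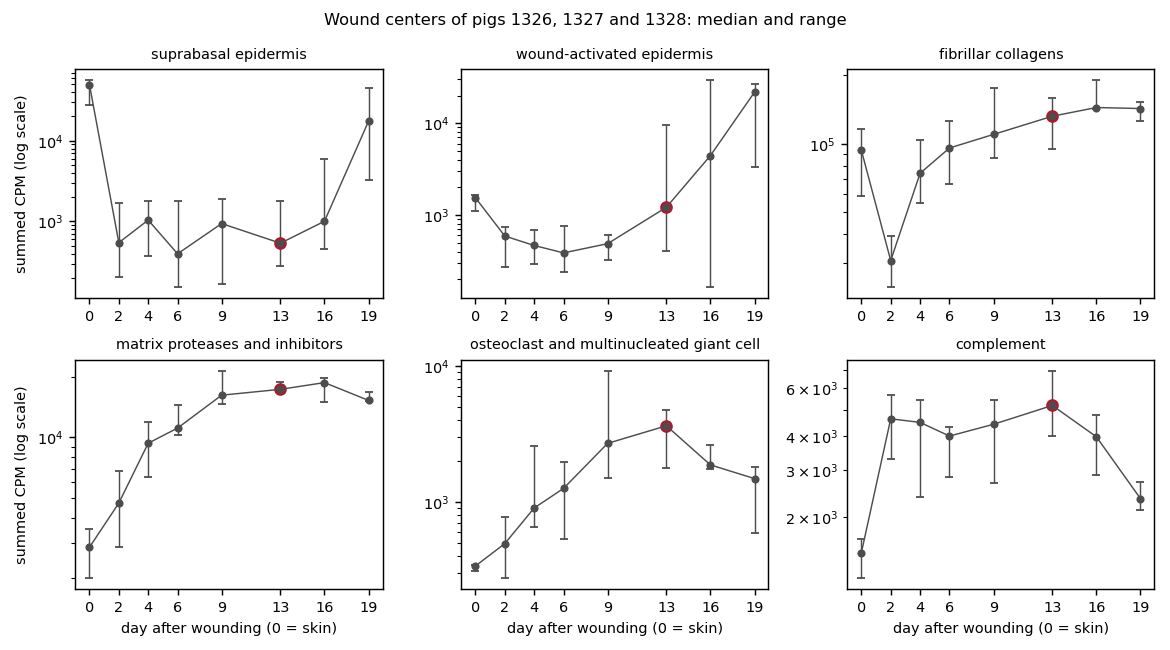
Median (points joined by a line) and range (capped bars) of the summed CPM of 6 gene lists, on log axes. Samples are day 0 skin and wound centers of pigs 1326, 1327 and 1328 by day after wounding. There are 3 samples on days 0, 16 and 19 and 6 on the other days, and day 13 is marked in red. The suprabasal list is low on day 13, and the epidermal lists have higher medians on day 19. The osteoclast and giant cell list has its highest median on day 13 (3625 CPM), with a range that overlaps that of day 9.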

How the data were processed

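Skin wound tissue of pigs was measured by bulk RNA sequencing (poly-A enrichment, paired-end Illumina reads), and the sequencing provider aligned the reads. The aligner, counter, genome build and strand setting are not given in the sources used here. The authors deposited raw read counts per gene, which were used here. They also deposited FPKM values of the same genes, which were not used. Coordinates are those of the deposited table, on contigs of an unnamed build, and no sequence is shown.

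Of 30461 genes, 11787 had a symbol in the name column, and 9417 others took the symbol of the protein match in the table. Where several genes carried a symbol, a gene named in the name column came before one named by protein match, then protein-coding genes, then the highest mean count. Every deposited sample column was mapped to a sample by its name. Groups followed the day and location labels. The 2 wounds of an animal are separate samples but not separate animals, so p-values measure the spread between samples. Replicates differed by more than counting noise (chi-square per gene of at least 37.6 in the centers and 23.0 in skin).

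Genes were filtered with filterByExpr (minimum count 10, minimum total 15), scaled by TMM and tested with edgeR 4.0.16 (quasi-likelihood test, Benjamini-Hochberg adjusted p under 0.05, two-sided) in fits of the 2 groups compared. Other tools were limma 3.58.1, DESeq2 1.42.0, R 4.3.3, scipy 1.17.1, pandas 2.3.3, numpy 2.4.6 and Python 3.11.15. On simulated counts for 14244 genes of the comparison with skin, edgeR found 66.0% of 2-fold and 99.0% of 4-fold changes, with 5.20% of its calls false. Only a small part of the genes was changed there, all with ample counts. The simulated samples were independent, with the same dispersion in every gene. In the real comparison most genes passed and wounds shared animals, so its share of false calls can differ.

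The labels pair center and skin by animal, and center and edge by wound. Same-animal deviations from the group means had correlations of 0.053, 0.018 and -0.001 between center and skin and of 0.394, 0.447 and 0.401 between days 9 and 13, and same-wound deviations of center and edge of -0.021 to 0.534. The block was an alternative. Others were median-of-ratios factors, library size only, no filter or a CPM filter, DESeq2, limma-voom, all 150 samples in a single fit, summed wounds, the same 3 animals, symbols of the name column only, and leaving out each library.

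Genes with values were named by rule: the 12 largest changes in each direction (adjusted p under 0.05, median count of at least 100 in the higher group, no overlap), the 6 largest changes in share of counts, 3 or so defining genes and the extremes of each list, 6 in each direction against the edge, and the 8 with the largest SD among centers. The 41 lists and the samples compared were chosen with earlier results of these data known. A few genes that the rule named are not reported here.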

Additional observations from a re-analysis of the deposited data

Results flagged for a closer look

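Within groups of 6 samples, 150 values (genes and list sums) were examined for a sample far from the others. The measure was the gap to the nearest sample over the whole range, with the 95% critical value of Dixon for 6 samples. Gap and range were taken on log2(CPM + 1) for genes and on log2 of the summed CPM for lists, while levels below are in CPM. Chance alone would flag about 1 in 20 independent groups, and 16 were found here. These rates cannot be compared. Some genes were picked for their spread among these centers, and many flags are of hair genes in 1 skin sample.

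In the day 13 centers, wound C of pig 1326 stood high in IGHG2 (20310 CPM against 29.4 to 214.4 CPM, gap 0.699 of the range) and IGLV3-25 (764.8 against 2.99 to 24.9 CPM, 0.644). Wound C of pig 1327 stood low in ADIPOQ (1.16 against 174 to 1636 CPM, 0.662) and in the summed matricellular list (27140 against 32320 to 35590 CPM, 0.645).

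Among the skin samples, pig 1324 stood low in hair genes: in the summed hair follicle list (255.2 against 5651 to 25020 CPM, 0.676), KRT71 (0.823), KRTAP9-3 (0.758), KRT33B (0.695), KRT31 (0.639), KRTAP3-3 (0.94), TCHH (0.763), KRT74 (0.788) and PRR9 (0.711). The centers were lower still in each of these genes. The skin of pig 1326 stood low in the summed growth factor list (1954 against 2254 to 2356 CPM, 0.763), that of pig 1325 high in CXCL8 (0.573 against 0 to 0.171 CPM, 0.651), and that of pig 1327 low in ADH1 (31.5 against 101.1 to 172.5 CPM, 0.684).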

How the results depend on the processing

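The number of genes called between center and skin was 6526 to 10354 over the alternatives and 8599 to 9120 without single libraries, always within 1.5 times 8967, and it was 7128 with the animal as a block, of which 7017 were also called without it. Between center and edge it fell to 2264 with the wounds of an animal summed, the other alternatives giving 3767 to 4863, leaving out single libraries 3312 to 4087, and the wound block 4564. Between days 13 and 9 edgeR called 0 genes, also with the animal as a block, but DESeq2 called 221 and the fit of all 150 samples 383. Leaving out single libraries gave 0 to 1. Between the 3 animals the count rose from 0 to 479 with DESeq2 and to 92 without a filter, and between wounds J and C from 0 to 170 with DESeq2, and 0 without the animal block. The cause of these differences was not tested. On simulated counts for the 3 animals, 8.55% of DESeq2 calls and 1.03% of edgeR calls were false. DESeq2 found 18.6% of the 2-fold changes there and edgeR 10.3%, so 0 calls by edgeR say little about such changes. The simulated samples were independent and had the same dispersion in every gene, so these rates need not hold for the wounds. For named genes, 4637 of the values against skin under an alternative stayed on the same side of the threshold, 138 lost the call and 37 gained it, and against the edge 2546, 108 and 30. No gene was called in opposite directions by the main and an alternative fit, but 48 values of 13 uncalled genes against skin and 71 of 24 against the edge changed sign without a call. The block changed 21 of 210 named calls against skin and 16 of 189 against the edge, given above for the genes described with values. Of the list counts, 1833 stayed within 1.5 times and 135 did not, many of them counts of 0 to 3 members. With symbols of the name column only, fewer members were found. Genes below the count filter, such as IL1B, were not tested.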
